A study of Danio rerio with 12 samples.

Results

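Solute carrier genes were followed in zebrafish exposed during embryonic development to atrazine, a herbicide that blocks photosynthesis. The members were all genes whose symbol in the array's platform annotation begins with slc and a number, or with slco. This gave 66 genes of 31 families, or 2.49% of the 2650 genes measured under a symbol. The rule used names only and no measured value. RNA of whole larvae came from 12 pools of 50 animals, taken 72 hours after fertilization from wild-type AB fish, with 3 pools at each dose. The groups were atrazine at 0.3, 3 and 30 ppb, given from about 1 to 72 hours, and controls at 0 ppb. The larvae carried no transgene or mutation that the labels name, and a pool mixes all tissues of its 50 larvae. The labels call the pools biological replicates and do not name their clutches, so the p-values below cover the spread among these 12 pools and may leave out variation between clutches.

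Solute carriers are membrane proteins that move small molecules by facilitated diffusion, exchange or coupling to an ion gradient. They do not split ATP for transport, unlike pumps and ABC transporters. Families are numbered by sequence and mostly share a type of substrate: SLC6 carriers take up neurotransmitters and amino acids with sodium, SLC25 carriers mostly serve the inner mitochondrial membrane, and SLC22 and SLCO carriers move organic ions, many of them drugs and metabolites. In fish larvae such carriers serve neurons, pigment cells, kidney, gut, liver and the ion-transporting cells of the skin. The roles given below are those known from human or mouse counterparts, except where zebrafish is named. No protein or probe sequence is shown, since none was used here.

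Every pool had an array of its own, read in 1 colour, and values are log2 fluorescence intensities averaged over the features (spots) of a gene. All but 6 of the 66 genes had 12 features, and the range was 8 to 12. Features of 1 gene differed in brightness by 1.92 to 6.63 on the log2 scale, with a median of 4.22. The level of one gene is therefore not set against that of another, and each gene is compared with itself across pools. Array medians lay between 529 and 530 in linear units, and 9 of the 66 genes were in the dimmest 25% of all 37144 units (genes and unnamed targets). No background measure was used here, so a dim gene cannot be called undetected. The largest axis of variation between arrays held 41.4% of the variance over all units, and dose explained 4.37% of that axis. Correlations with that axis were over 0.5 for 19 of the 66 genes and under -0.5 for 11. The share of all units past these values was not computed, so the counts do not set these genes apart from other units. In control pools the brightest measured marker was acta1b in the muscle list (15.18) and crybb1 in the lens and photoreceptor list (15.08). It was hbae3 in the blood list (14.80) and dct in the pigment cell list (13.03). The dimmest of the same lists were mybpc1 (10.42), mipa (12.13), ba1l (6.10) and pmela (10.52). Without a background measure these levels do not show how much RNA of each tissue was present. No gene of the neuron and glia, kidney tubule or epidermis lists was measured under a symbol.

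No solute carrier gene passed the test at any dose. The question was which transporters differ in larvae exposed to 0.3, 3 or 30 ppb. limma, with Benjamini-Hochberg adjustment over all 37144 units, called 0 of 66 genes at each of the 3 doses, where it called 0.0% of all units. The smallest adjusted p among the 66 genes was 1 in every comparison. Fitted log2 changes of the genes lay between -0.47 and 0.36 at 0.3 ppb, between -0.32 and 0.36 at 3 ppb, and between -0.44 and 0.25 at 30 ppb. The 3 comparisons share the same control pools. The plot of fitted changes by function shows these values with their intervals.

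The intervals give the precision behind the missing calls. The 95% interval of a gene's change, unadjusted, reached a median of 0.35 to either side, with a range of 0.24 to 0.90. At 0.3 ppb and at 30 ppb the intervals of all 66 genes lay within a 2-fold change in either direction, as those of 95.8% and 96.0% of all units did. At 3 ppb those of 64 genes did (95.3% of all units), and the exceptions were slc25a11 and slco1f4, with intervals of -1.001 to 0.79 and -0.30 to 1.03. Over all 3 doses together the figure was 64 of 66 genes, beside 92.8% of all units. Each interval holds the changes that the pools of that gene are compatible with. All included 0 except the few named in the caption of the figure of fitted changes. With 3 pools a dose, the number of arrays limits the precision.

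**Figure D1:**
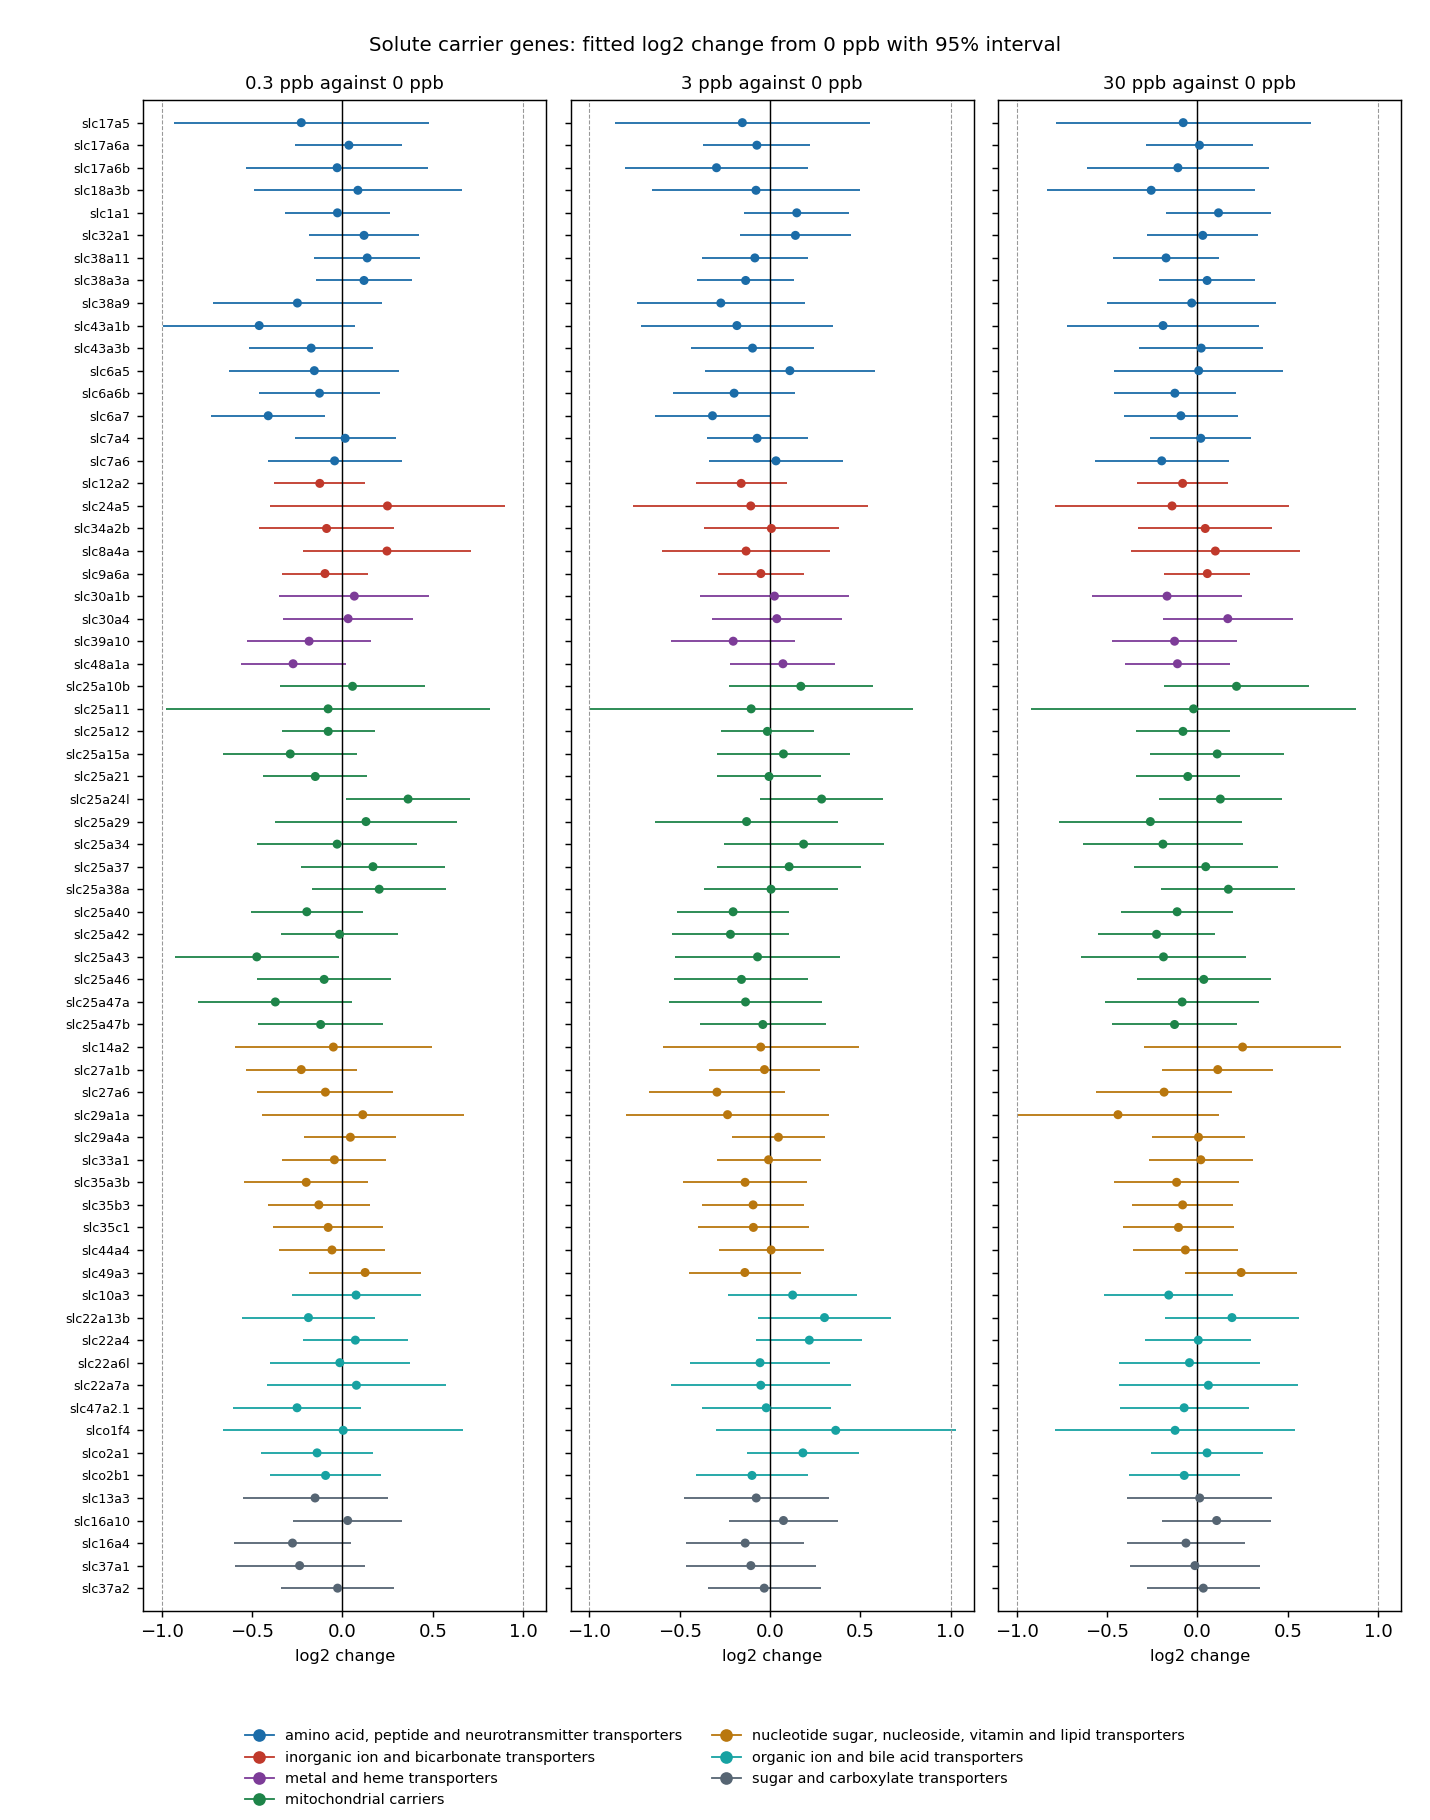
Fitted log2 change of each of the 66 solute carrier genes at 0.3, 3 and 30 ppb against 0 ppb (x axis), with genes down the page and coloured by function; points are estimates from 3 pools a dose, lines are 95% intervals and dashed lines mark a 2-fold change. Intervals leave out 0 for slc6a7 at 0.3 and 3 ppb and for slc25a43 and slc25a24l at 0.3 ppb, and only those of slc25a11 and slco1f4 at 3 ppb reach beyond 2-fold.

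At the lowest dose, more of the genes lay below control than above it. At 0.3 ppb 43 of 66 were lower in mean (49.3% of all units were), with a median change of -0.07 against 0.00 over all units. With a probe-position gradient as covariate 38 of 66 were lower. All 3 exposed pools lay outside the range of the 3 control pools for 10 genes, where 5.08% of all units did so: 9 genes were below (2.99% of all units) and 1 was above (2.09%). The 9 were slc6a7, slc6a6b, slc12a2, slc16a4, slc37a1, slc25a15a, slc25a43, slc27a1b and slc35b3, and the 1 above was slc38a3a. An unadjusted p under 0.05 was found for 3 genes (1.48% of all units), of which slc6a7 and slc25a43 also had no overlap (1.08% of all units met both conditions). The third, slc25a24l, overlapped. Correlations with the largest axis of variation between arrays were 0.69 for slc6a7, 0.75 for slc25a43 and -0.61 for slc25a24l. The part of that axis in the changes at 0.3 ppb was not tested.

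At 3 ppb 44 of 66 genes were lower (52.8% of all units), with a median of -0.06 against -0.01 over all units. No overlap with the controls was found for 7 genes (7.4% of all units). Those below were slc6a7, slc12a2, slc25a40, slc38a3a, slc38a9 and slc39a10, or 6 genes (3.88%), and slc25a24l was above (3.52%). An unadjusted p under 0.05 was found for 1 gene, slc6a7, where 3.02% of all units had one and 2.15% also had no overlap. The count of lower genes at 3 ppb depended on how features were combined: with the median of features in place of the mean it was 31 of 66.

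At 30 ppb 37 of 66 genes were lower (55.3% of all units), with a median of -0.05 against -0.02. The 2 genes with no overlap, slc25a42 and slc25a43, were both below control (6.53% of all units had no overlap, 3.13% below and 3.4% above). No gene had an unadjusted p under 0.05 (2.5% of all units), so none met both conditions (2.01%). The median turned to the other side of 0 when single pools were left out: with 0 ppb replicate 2 left out it was 0.0011, and with 30 ppb replicate 1 left out it was 0.0049.

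The mean of the 3 doses, the ordered doses and any difference among the 4 doses were also tested. For the mean of the doses 46 of 66 genes were lower (54.2% of all units), 0 were called (0.0%), and the pools of no gene stood apart from the controls (0.35%). The 1 gene with an unadjusted p under 0.05 was slc6a7, at 0.0396 (2.16% of all units). With the median of features 35 of 66 were lower. Over the ordered doses, 38 of 66 slopes were negative (55.4%), with 0 calls (0.0969% of all units) and 0 at an unadjusted p under 0.05 (4.3%). The moderated F test over the 4 doses gave 0 calls (0.0%) and 0 genes under 0.05 (2.44%). The highest of the 4 dose means was at 0 ppb for 25 genes, at 0.3 ppb for 13, at 3 ppb for 13 and at 30 ppb for 15. Over all units it was at 0 ppb for 23.7%, at 0.3 ppb for 30.5%, at 3 ppb for 23.8% and at 30 ppb for 22%.

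Role groups were set by family number, so a member can carry another substrate than its group's name says. The families of amino acid, peptide and neurotransmitter carriers held 16 genes, and 0 passed. Of these, 10 were lower at 0.3 ppb, 12 at 3 ppb and 9 at 30 ppb, with medians of -0.04, -0.09 and -0.06. The gene with the smallest unadjusted p of all 66 was slc6a7, which encodes the sodium-coupled proline transporter of glutamatergic nerve endings. Its level was 8.15, 8.52 and 8.33 in the 0.3 ppb pools and 8.21, 8.62 and 8.44 in the 3 ppb pools, against 8.68, 8.88 and 8.66 in the control pools. At both doses every exposed pool was below every control pool. At 30 ppb it was 8.55, 8.73 and 8.68, within reach of the controls. The changes were -0.41 at 0.3 ppb (SE 0.15, unadjusted p = 0.015, adjusted p = 1), -0.32 at 3 ppb (SE 0.15, unadjusted p = 0.0489, adjusted p = 1) and -0.09 at 30 ppb (SE 0.15, unadjusted p = 0.541), by limma. Of its 12 features, 11 were lower at 0.3 ppb and 11 at 3 ppb. The lowest of the 3 pools was replicate 1 at each of these doses. Without it the change was -0.32 at 0.3 ppb and -0.21 at 3 ppb. With the median of its features the change at 0.3 ppb was -0.22.

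The widest range of dose means in this group was that of slc43a1b, a transporter of large neutral amino acids such as leucine. It had 8.69, 9.29 and 8.89 at 0.3 ppb, against 9.49, 9.64 and 9.12 at 0 ppb. One exposed pool, replicate 2, lay above the lowest control. The change was -0.46 (SE 0.24, unadjusted p = 0.0833), and 12 of 12 features were lower. At 3 and 30 ppb the changes were -0.18 and -0.19 (SE 0.24 each), with pools of 8.83 to 9.69 and 9.03 to 9.61.

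The glutamine transporter gene slc38a3a, picked after its values were seen, stood apart from the controls on opposite sides at neighbouring doses. It had 8.12, 8.13 and 8.31 at 0.3 ppb and 7.97, 7.96 and 7.87 at 3 ppb, against 8.003, 8.11 and 8.09 at 0 ppb. The changes were 0.12 and -0.13 (SE 0.12 each, unadjusted p of 0.349 and 0.297), and 7 and 8 of its 12 features shared the direction. The taurine transporter gene slc6a6b was below every control at 0.3 ppb, with 9.46, 9.47 and 9.40 against 9.54, 9.70 and 9.48 (change -0.13, SE 0.15). The gene slc38a9, for a lysosomal arginine transporter, had 8.26, 8.37 and 8.37 at 3 ppb, against 8.68, 8.53 and 8.61 at 0 ppb (change -0.27, SE 0.21, unadjusted p = 0.23). None of these differences passed the test. Besides slc17a5 and the neuronal carriers described below, the group also held the glutamate transporter gene slc1a1 and slc7a6, slc7a4, slc38a11 and slc43a3b. The pools of these last-named genes overlapped the controls at every dose, with unadjusted p-values of at least 0.222 by limma.

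Of the genes for transmitter loading and uptake in neurons, 5 are described here, chosen after their values were seen. Left out of the 5 are slc1a1, slc29a4a and slc6a7. Of these, slc6a7 had pools apart from the controls at 0.3 and 3 ppb, as described above. The vesicular glutamate transporter genes slc17a6a and slc17a6b averaged 11.29 ± 0.16 and 11.51 ± 0.39 at 30 ppb, against 11.28 ± 0.11 and 11.62 ± 0.35 at 0 ppb (SD, n = 3 each). Of this pair of paralogues, slc17a6a had dose means within 0.11 of each other, while those of slc17a6b spanned 0.30 with wider pool spread. The vesicular GABA and glycine transporter gene slc32a1 averaged 11.65 ± 0.18 at 30 ppb and 11.62 ± 0.04 at 0 ppb. The gene slc6a5, for the glycine transporter of inhibitory nerve endings, averaged 12.29 ± 0.46 at 30 ppb and 12.28 ± 0.10 at 0 ppb. The vesicular acetylcholine transporter gene slc18a3b averaged 7.37 ± 0.26 at 30 ppb and 7.63 ± 0.35 at 0 ppb, the largest difference of the 5 at that dose. None of the 5 had pools apart from the controls at any dose, and their unadjusted p-values at the 3 doses were at least 0.228.

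The mitochondrial carriers, all of family SLC25, also numbered 16. At 0.3 ppb 11 were lower, at 3 ppb 10 and at 30 ppb 10, with medians of -0.08, -0.03 and -0.07, and 0 passed. The largest difference of all 66 genes at 0.3 ppb was in slc25a43, a carrier whose substrate is not settled. It had 8.17, 8.85 and 8.49 at 0.3 ppb, against 9.01, 9.03 and 8.88 at 0 ppb. Every exposed pool was below every control pool, though replicate 2 by a small margin. The change was -0.47 (SE 0.21, unadjusted p = 0.0427, adjusted p = 1), with 9 of 10 features lower. At 3 ppb its pools were split, at 8.41, 9.14 and 9.17, and the change was -0.07. At 30 ppb they were close together at 8.71, 8.83 and 8.81, again below all controls, with a change of -0.19 (SE 0.21, unadjusted p = 0.388). At this dose only 6 of the 10 features were lower. Without 0.3 ppb replicate 1 the change at that dose was -0.31.

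Other mitochondrial carriers stood apart from the controls at a dose where their unadjusted p was not under 0.05. These were picked after their values were seen. The mitochondrial ornithine transporter gene slc25a15a had 8.47, 8.62 and 8.47 at 0.3 ppb, against 8.92, 8.79 and 8.71 at 0 ppb. The change was -0.29 (SE 0.17, unadjusted p = 0.116), all 12 features were lower, and at 3 and 30 ppb the differences were 0.07 and 0.11. The coenzyme A carrier gene slc25a42 had 9.85, 9.78 and 9.69 at 30 ppb, against 9.99, 10.01 and 9.99 at 0 ppb, where the controls lay very close together. Its change was -0.23 (SE 0.15, unadjusted p = 0.155). The gene slc25a24l, related to carriers of ATP-magnesium and phosphate, was the one with the largest positive change at 0.3 ppb. It had 6.11, 5.98 and 6.48 at that dose and 6.22, 6.05 and 6.07 at 3 ppb, against 5.78, 5.67 and 6.02 at 0 ppb. The changes were 0.36 (SE 0.16, unadjusted p = 0.0387) and 0.29 (SE 0.16, unadjusted p = 0.0929), and 8 of 9 features were higher at each of these doses. It is dim on the array, brighter than 8.9% of all units. The gene slc25a40, for a mitochondrial glutathione carrier, had 7.82, 7.91 and 7.69 at 3 ppb, against 7.997, 7.94 and 8.10 at 0 ppb (change -0.20, SE 0.14, unadjusted p = 0.18).

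Iron and heme handling in mitochondria is represented by slc25a37, mitoferrin 1, which zebrafish need to make red blood cells, and slc25a38a, a glycine importer for heme synthesis. The level of slc25a37 averaged 6.71 ± 0.19 at 30 ppb and 6.67 ± 0.11 at 0 ppb, and that of slc25a38a 7.21 ± 0.28 at 30 ppb and 7.04 ± 0.22 at 0 ppb (SD, n = 3 each). Neither stood apart from the controls at any dose. In whole larvae, fewer cells of a type and less RNA per cell cannot be told apart. The paralogues slc25a47a and slc25a47b differed from control by -0.37 (SE 0.20) and -0.12 (SE 0.16) at 0.3 ppb, and by -0.08 and -0.13 at 30 ppb. The dicarboxylate carrier gene slc25a10b had dose means of 10.22, 10.27, 10.39 and 10.43 in order of dose, with pools that overlapped the controls at every dose. The slope of 0.08 per step had an SE of 0.05 and an unadjusted p of 0.175 by limma. Of its 12 features, 6 had a positive slope and 6 a negative one. The aspartate-glutamate carrier gene slc25a12 had dose means within 0.08 of each other. For slc25a29, a carrier of basic amino acids, the change at 30 ppb was -0.26 (SE 0.23), and the control pools alone ranged from 5.76 to 6.88. The others, slc25a21, slc25a34 and slc25a46, overlapped the controls at each dose.

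Carriers of inorganic ions and bicarbonate numbered 5, of which 3 were lower at 0.3 ppb, 4 at 3 ppb and 2 at 30 ppb, with 0 past the test. Among them slc24a5 had the widest range of dose means, 0.39, with slc8a4a close behind at 0.38. With 1 pool left out the slc24a5 range lay between 0.21 (without 0.3 ppb replicate 2) and 0.70 (without 30 ppb replicate 3), and it was 0.64 without 0.3 ppb replicate 1. It encodes a potassium-dependent sodium-calcium exchanger of pigment cells, and its loss gives the pale golden zebrafish. Its level was 9.13, 10.01 and 9.77 at 0.3 ppb, and 9.13, 9.06 and 9.65 at 3 ppb. At 30 ppb it was 8.62, 9.26 and 9.86, against 9.41, 9.16 and 9.60 at 0 ppb. The pools of every dose overlapped the controls, and those at 30 ppb were spread over more than 1 log2 unit. The changes were 0.25, -0.11 and -0.14 (SE 0.30 each, unadjusted p of 0.42, 0.73 and 0.647). The 2 pigment cell markers measured, dct and pmela, differed by -0.17 and 0.29 at 30 ppb, and their part in the slc24a5 values was not tested. The sodium-potassium-chloride cotransporter gene slc12a2 was lower in every pool at 0.3 ppb (11.60, 11.69 and 11.66) and at 3 ppb (11.61, 11.68 and 11.56) than in every control pool (11.71, 11.80 and 11.82). The differences were small, at -0.12 and -0.16 (SE 0.12 each, unadjusted p of 0.303 and 0.196). The endosomal sodium-proton exchanger gene slc9a6a had the smallest spread between pools of the 66 genes, with a pooled SD of 0.06. The sodium-calcium exchanger gene slc8a4a and the sodium-phosphate cotransporter gene slc34a2b differed from control by 0.25 (SE 0.21) and -0.09 (SE 0.17) at 0.3 ppb.

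Of the 4 metal and heme carriers, 2 were lower at 0.3 ppb, 1 at 3 ppb and 3 at 30 ppb, and 0 passed. The heme transporter gene slc48a1a had the widest range, 0.34. It had 9.48, 9.52 and 9.62 at 0.3 ppb, against 9.99, 9.85 and 9.60 at 0 ppb, so only the highest exposed pool reached the controls. The change was -0.27 (SE 0.13, unadjusted p = 0.0633), with 10 of 11 features lower. At 3 and 30 ppb the changes were 0.07 and -0.11. The zinc importer gene slc39a10 had 10.07, 10.13 and 10.05 at 3 ppb, against 10.23, 10.31 and 10.32 at 0 ppb, below every control (change -0.20, SE 0.16, unadjusted p = 0.225). The zinc exporter genes slc30a1b and slc30a4 differed by -0.17 (SE 0.19) and 0.17 (SE 0.17) at 30 ppb.

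The carriers of organic ions and bile acids numbered 9, of which 5 were lower at 0.3 ppb, 4 at 3 ppb and 5 at 30 ppb. The group had median changes of -0.01, 0.13 and -0.04, and 0 passed. These families take up and secrete many foreign compounds in liver and kidney. The widest range of dose means was that of slc22a13b, an organic anion transporter gene. It had 7.04, 7.44 and 7.59 at 0.3 ppb, 8.03, 7.71 and 7.81 at 3 ppb, and 7.71, 7.95 and 7.54 at 30 ppb, against 7.72, 7.48 and 7.44 at 0 ppb. At 3 ppb the lowest pool lay just under the highest control. The changes were -0.19, 0.30 and 0.19 (SE 0.17 each, unadjusted p of 0.291, 0.1 and 0.283). Its slope over the ordered doses was 0.11 per step (SE 0.06, unadjusted p = 0.0963, adjusted p = 1), the highest slope of the 66 genes. Only 7 of its 12 features were higher at 3 ppb.

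Within the same group slco1f4, an organic anion transporting polypeptide gene of fish, was among the 3 genes with the largest spread between pools. A single pool, 3 ppb replicate 1, stood at 7.18, and the other 11 pools lay between 5.46 and 6.30. The range of its dose means was 0.49 with all pools and 0.13 without that pool. The gene is dim, brighter than 9.0% of all units. The dose means of slc22a6l, an organic anion transporter gene related to that of the kidney proximal tubule, lay within 0.05 of each other with all pools. With 1 pool left out the range was 0.04 to 0.20, the highest without 0 ppb replicate 3. Its pools ranged from 9.76 to 10.27, and at every dose replicate 3 was the lowest of the 3. The prostaglandin transporter gene slco2a1 averaged 7.51 ± 0.06 at 3 ppb and 7.33 ± 0.26 at 0 ppb, with overlapping pools. The multidrug and toxin extrusion gene slc47a2.1 differed by -0.25 at 0.3 ppb (SE 0.16, unadjusted p = 0.152). The gene slc22a4, whose human product carries ergothioneine, differed by 0.22 at 3 ppb (SE 0.13, unadjusted p = 0.131). The pools of slc22a7a, slc10a3 and slco2b1 likewise overlapped the controls at every dose.

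The largest difference at 30 ppb of all 66 genes was in slc29a1a, an equilibrative nucleoside transporter gene. It had 9.31, 10.30 and 10.43 at 30 ppb, against 10.51, 10.57 and 10.28 at 0 ppb. The difference rested on replicate 1, and the other 30 ppb pools were within the control range. The change was -0.44 (SE 0.26, unadjusted p = 0.113, adjusted p = 1), with 11 of 12 features lower. At 0.3 and 3 ppb the changes were 0.11 and -0.23 (SE 0.26 each). Its slope of -0.17 per dose step had the smallest unadjusted p of the 66 slopes, 0.0532. The range of its dose means was 0.55, the widest of the 66 genes, and without 30 ppb replicate 1 it was 0.35.

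It belongs to 11 carriers of nucleotide sugars, nucleosides, vitamins, lipids and related small molecules. Of these, 8 were lower at 0.3 ppb, 9 at 3 ppb and 6 at 30 ppb, with medians of -0.06, -0.09 and -0.07, and 0 passed. The fatty acid transport protein genes slc27a1b and slc27a6 were picked after their values were seen. For slc27a1b the pools were 9.76, 9.86 and 9.63 at 0.3 ppb, against 9.92, 10.12 and 9.89 at 0 ppb (change -0.23, SE 0.14, unadjusted p = 0.133). For slc27a6 they were 8.98, 8.52 and 8.28 at 3 ppb, against 8.71, 9.05 and 8.89 at 0 ppb (change -0.29, SE 0.17, unadjusted p = 0.117). At 0.3 ppb every pool of slc27a1b was below every control, whereas for slc27a6 a single 3 ppb pool lay among the controls. At 3 and 30 ppb the changes of slc27a1b were -0.03 and 0.11 (SE 0.14 each), with overlapping pools. When arrays were weighted by quality, slc27a6 was the 1 gene of the 66 that passed at 3 ppb (change -0.52, adjusted p = 0.0347 by limma). That fit called 3.21% of all units at 3 ppb. It gave the pool among the controls, 3 ppb replicate 1, a weight of 0.285. The lowest pool, 3 ppb replicate 3 at 8.28, had a weight of 9.92, and replicate 2 had 1.04. The weighted change thus rested mainly on 1 pool. In its F test 3 of the 66 genes passed, where 5.52% of all units did. The acetyl-CoA transporter gene slc33a1 and the monoamine and nucleoside transporter gene slc29a4a were among the 3 genes with the smallest range of dose means. Dose means of slc33a1 were 10.17, 10.13, 10.16 and 10.19 in order of dose, and those of slc29a4a were 10.40, 10.45, 10.45 and 10.41. With 1 pool left out their ranges reached 0.13 (slc33a1, without 30 ppb replicate 3) and 0.12 (slc29a4a, without 3 ppb replicate 2).

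The Golgi carrier gene slc35b3, which supplies the sulfate donor for sulfation, was below every control at 0.3 ppb, with 10.47, 10.50 and 10.33 against 10.62, 10.51 and 10.55 (change -0.13, SE 0.13). The highest positive change at 30 ppb was 0.25 (SE 0.25, unadjusted p = 0.338), in the urea transporter gene slc14a2. It rested on 30 ppb replicate 1 at 7.54, since the other pools were 6.62 and 6.63, against 6.66, 6.84 and 6.54 at 0 ppb. For slc49a3, a carrier without a settled substrate, the pools were 9.58, 10.03 and 9.95 at 30 ppb, against 9.56, 9.73 and 9.55 at 0 ppb (change 0.24, SE 0.14, unadjusted p = 0.114). The nucleotide sugar carrier genes slc35a3b (UDP-N-acetylglucosamine) and slc35c1 (GDP-fucose) differed by -0.12 and -0.10 at 30 ppb, and slc44a4, of the choline transporter-like family, by -0.07.

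Of the 5 sugar and carboxylate carriers, 4 were lower at 0.3 ppb, 4 at 3 ppb and 2 at 30 ppb, with 0 past the test. The widest range was that of slc16a4, a gene of the monocarboxylate transporter family. It had 8.68, 8.87 and 8.77 at 0.3 ppb, against 9.01, 9.13 and 9.02 at 0 ppb, below every control. The change was -0.28 (SE 0.15, unadjusted p = 0.0896, adjusted p = 1), with 10 of 12 features lower. At 3 ppb replicate 1 was low at 8.63, and the other pools, at 9.05 and 9.06, were level with the controls. At 30 ppb the same held for 8.77 against 9.12 and 9.08. The glucose-6-phosphate exchanger gene slc37a1 had 10.06, 9.72 and 9.98 at 0.3 ppb, against 10.26, 10.10 and 10.11 at 0 ppb (change -0.24, SE 0.17, unadjusted p = 0.179). Its relative slc37a2 differed by -0.03 (SE 0.14), and the dicarboxylate transporter gene slc13a3 by -0.15 (SE 0.19), both with overlap. The gene slc16a10, whose product carries aromatic amino acids and thyroid hormones, averaged 12.36 ± 0.22 at 30 ppb and 12.26 ± 0.14 at 0 ppb.

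**Figure D2:**
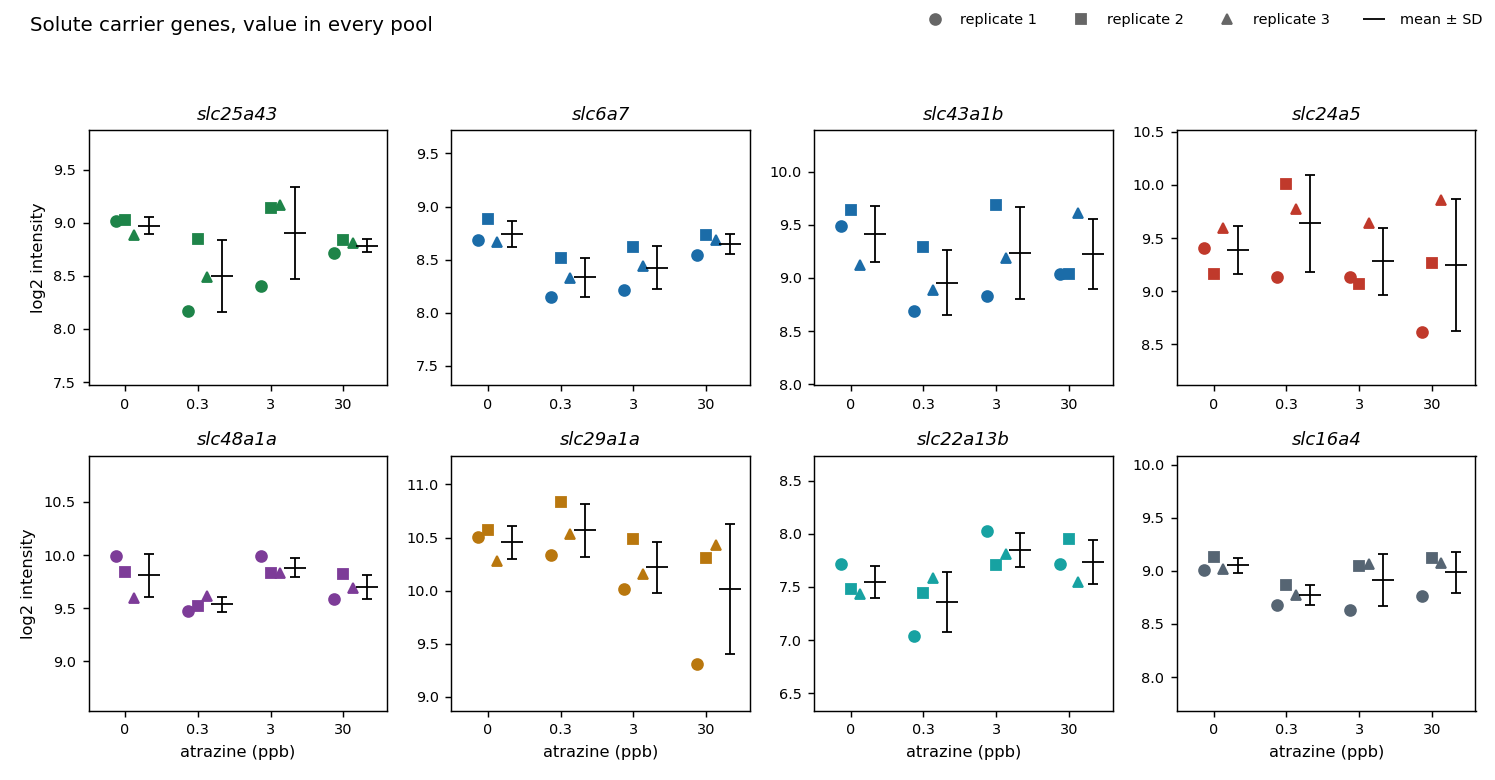
Log2 intensity (y axis) in every pool at 0, 0.3, 3 and 30 ppb atrazine (x axis) for slc25a43, slc6a7, slc43a1b, slc24a5, slc48a1a, slc29a1a, slc22a13b and slc16a4; symbols are pools by replicate number and bars are mean ± SD over 3 pools. For slc6a7 all pools at 0.3 and 3 ppb lie below the control pools, while slc29a1a at 30 ppb has a single low pool at 9.31.

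The spread between pools of the same dose was set beside the range of the dose means. The pooled SD ranged from 0.06 to 0.61 with a median of 0.19 (0.22 over all units). The range of the 4 dose means had a median of 0.22 (0.21 over all units). In 30 of the 66 genes the range of dose means was smaller than the pooled SD, as it was in 52.6% of all units. These are unlike measures, a range of 4 means and an SD of single pools. The line of equality is therefore only a guide and does not mark equal spread. The plot of both measures places slc22a13b, slc6a7 and slc48a1a well above the line of equality and slc25a11 far below it.

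**Figure D3:**
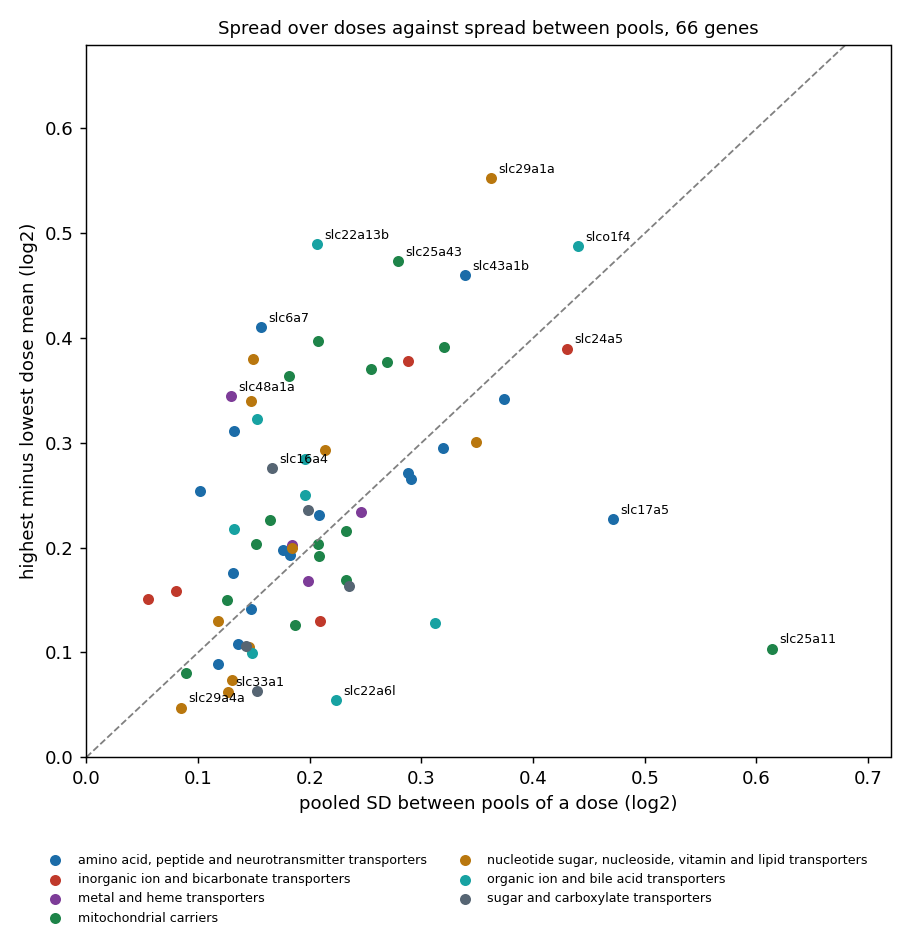
Range of the 4 dose means (y axis, log2) against the pooled SD between pools of a dose (x axis, log2) for 66 solute carrier genes coloured by function, with a dashed line of equality. The 30 genes below the line have a range of dose means smaller than their pooled SD, and slc25a11 lies farthest to the right at 0.61.

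The genes with the largest pool spread besides slco1f4 were slc25a11 and slc17a5. The 2-oxoglutarate and malate carrier gene slc25a11 had 10.21, 10.89 and 11.13 at 30 ppb and 9.63, 11.21 and 11.15 at 3 ppb. At 0.3 ppb it had 10.24, 11.31 and 10.51, against 10.89, 11.09 and 10.31 at 0 ppb. The sialin gene slc17a5, for the lysosomal sialic acid exporter, had 9.97, 11.15 and 10.76 at 3 ppb and 10.14, 11.14 and 10.38 at 0.3 ppb, against 11.02, 11.09 and 10.23 at 0 ppb. In both genes 3 ppb replicate 1 was the lowest of the 12 pools, and the 4 next lowest were 30 ppb replicate 1, 0.3 ppb replicate 1, 0.3 ppb replicate 3 and 0 ppb replicate 3. These were the pools with negative scores on the largest axis of variation between arrays over all units. All of them but 30 ppb replicate 1 also had a negative probe-position gradient. Correlations with that axis were 0.96 for slc25a11 and 0.95 for slc17a5. The range of dose means of slc25a11 was 0.08 to 0.49 with 1 pool left out, and that of slc17a5 was 0.15 to 0.52. Their changes at the 3 doses were -0.23 to -0.02 with SEs of 0.33 to 0.41. The same pool, 3 ppb replicate 1, was the lowest of the 12 for 10 of the 66 genes (15.2%) and the highest for 9 (13.6%). Over all units it was the lowest for 14.6% and the highest for 13.9%.

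**Figure D4:**
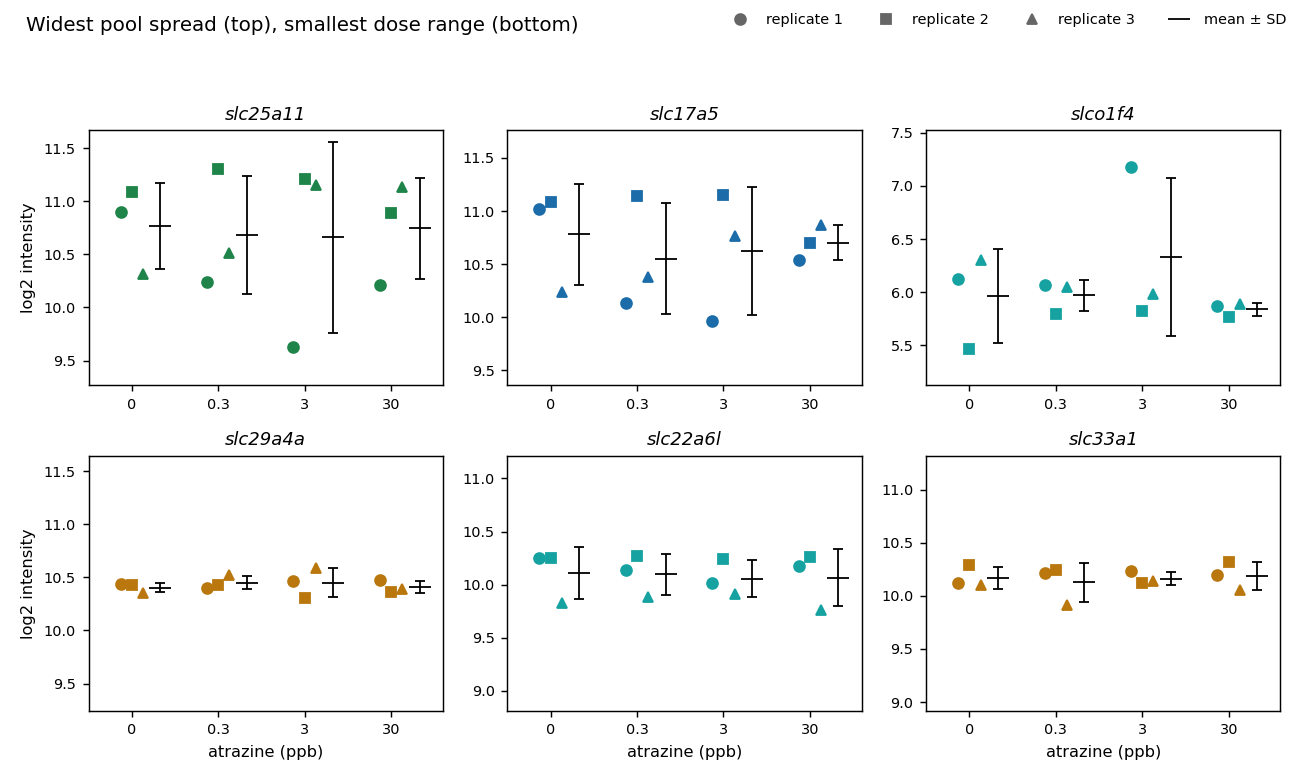
Log2 intensity (y axis) in every pool by atrazine dose (x axis) for the 3 genes with the largest pooled SD (top row: slc25a11, slc17a5, slco1f4) and the 3 with the smallest range of dose means (bottom row: slc29a4a, slc22a6l, slc33a1); symbols are pools by replicate number and bars are mean ± SD over 3 pools. The farthest pools of the top row include 9.63 for slc25a11 and 7.18 for slco1f4, both in 3 ppb replicate 1.

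Genes that work beside solute carriers showed no call either. Of 44 listed pumps, aquaporins and ABC transporters, 5 were measured under a symbol (atp1a3b, aqp8a.2, aqp9a, abcg2a and abcg2c), and 0 passed at any dose. Of these, 4 were lower at 0.3 ppb, 1 at 3 ppb and 3 at 30 ppb. Their medians were -0.07, 0.06 and -0.07. Of 14 listed markers of ionocytes, the ion-transporting skin cells, 4 were measured (foxi3a, ca15a, trpv6 and rhcga). Of these markers, 3 were lower at 0.3 ppb, 0 at 3 ppb and 1 at 30 ppb, with medians of -0.11, 0.17 and 0.04, and none passed the test. The ammonia transporter gene rhcga had 9.04, 10.07 and 8.83 at 3 ppb and 10.26, 8.94 and 8.76 at 30 ppb, against 8.64, 9.14 and 8.16 at 0 ppb, with overlap at each dose.

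Markers of other tissues were measured for context, and none passed at any dose. All 3 of the muscle markers measured (of 12 listed) were lower at each dose, with medians of -0.12, -0.07 and -0.16. One of them, mybpc1, for a myosin-binding protein of muscle, had 10.14, 9.79 and 9.91 at 0.3 ppb, against 10.45, 10.39 and 10.43 at 0 ppb, below every control (change -0.48, SE 0.14, unadjusted p = 0.0055, adjusted p = 1 by limma). That p was smaller than the smallest among the 66 carriers at 0.3 ppb. At that dose 1.08% of all units had both no overlap and an unadjusted p under 0.05. The other muscle markers, acta1b and mylpfb, differed by -0.12 (SE 0.20) and -0.04 (SE 0.26) at 0.3 ppb. Of 9 listed blood markers, 3 were measured: all 3 were higher at 0.3 and 3 ppb and 2 at 30 ppb, with medians of 0.27, 0.19 and 0.06. The brightest of them, the embryonic globin gene hbae3, differed by 0.06 at 0.3 ppb, 0.15 at 3 ppb and 0.06 at 30 ppb, with SEs of 0.17. The globin gene ba1l, which was dim, had 6.97, 6.52 and 6.90 at 3 ppb, against 5.94, 6.15 and 6.22 at 0 ppb. The change was 0.69 (SE 0.17, unadjusted p = 0.00166, adjusted p = 0.732 by limma). At 0.3 and 30 ppb its pools also lay above every control, with changes of 0.27 and 0.59 (unadjusted p of 0.151 and 0.00473 by limma). Of all units, 0.35% had all exposed pools apart from the controls. Of the other lists, medians at the 3 doses were -0.44, 0.35 and 0.36 for 2 of 12 exocrine pancreas markers, -0.03, 0.06 and 0.03 for 3 of 15 lens and photoreceptor markers, -0.03, -0.27 and 0.06 for 2 of 9 pigment cell markers, and -0.01, 0.05 and -0.03 for 2 of 10 intestine and liver markers. The pancreas genes prss59.1 and ctrb.3 differed by -0.80 and -0.09 at 0.3 ppb, with SEs of 0.51 and 0.49 at each dose. The part of the tissue markers in the transporter values was not tested.

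A further solute carrier, slc25a5, an adenine nucleotide translocator, was named through its transcript accession alone and so fell outside the rule. Its dose means were 15.35, 15.39, 15.31 and 15.35 in order of dose.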

How the data were processed

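Expression was measured in 12 pools of whole larvae, 3 at each of 4 doses, on 1 single-colour NimbleGen array per pool. The deposited values are linear fluorescence intensities of 385000 features, which had nearly the same quantiles on every array; the authors used RMA, per the submitters' processing notes, with no version given. Beyond the name RMA, no details of background correction were given in the sources used here, and neither were slides and scan order. The test design had assumed log2 values, so the intensities were log2-transformed first. Features were averaged per gene symbol, or per target where no symbol was given: 30326 features had a symbol in the platform annotation, 399 more were named through transcript accessions in RefSeq (GRCz12tu), and 354275 had none. This gave 37144 units, 2650 with a symbol.

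limma 3.58.1 (R 4.3.3) was fitted to all 12 arrays with 4 dose means. Each dose minus 0 ppb, the mean of the doses minus 0 ppb, the slope over dose rank and an F test over the 4 doses were tested two-sided. P-values were adjusted by Benjamini-Hochberg over all units, with a threshold of 0.05. The fit was tested on simulated data with added changes larger than any fitted in the solute carrier genes. That test therefore does not show whether changes as small as theirs would be called. Alternatives were the median of features, quantile normalization, cyclic loess, leaving out the dimmest 25% of units, array quality weights, eBayes with trend and robust, the compared groups alone, a replicate block, a threshold of 0.1, a probe-position gradient as covariate, dose in ppb, and each pool left out.

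Members, role groups and gene lists were chosen with earlier results of these data known. Genes named by rule were members past the threshold (none), those whose pools at a dose stood apart from control with p under 0.05 before adjustment (slc25a43, slc6a7), those with a trend p under 0.05 (none), the widest range of dose means in each role group, the 3 with the largest pooled SD, and the 3 with the smallest range. All other genes given with values were chosen after their values were seen.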

Additional observations from a re-analysis of the deposited data

How the results depend on the processing

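The count of solute carrier genes called was 0 in the main analysis, in all 12 fits that left out a pool, for each of the 6 tests, and under every other alternative except array quality weights. Those weights ran from 0.285 (3 ppb replicate 1) to 9.92 (3 ppb replicate 3) and were estimated with 1 convergence warning. With them limma called 1 gene at 3 ppb (slc27a6) and 3 in the F test (slc25a43, slc27a6 and slc49a3, adjusted p of 0.0425, 0.0264 and 0.01). Over all units those weights gave 1193 calls at 3 ppb, 354 at 30 ppb, 24 for the mean of the doses, 370 for the trend and 2051 in the F test. The main counts were 0, except 36 for the trend. At the threshold of 0.05 other alternatives gave at most 12 calls at 3 ppb, 8 at 30 ppb and 18 in the F test, all with the probe-position gradient. For the trend they gave 57 with that gradient, 14 with the median of features, 11 without the dimmest 25%, 0 with dose in ppb, and 0 to 58 with a pool left out. At a threshold of 0.1 the main fit gave 10 calls at 30 ppb, 12 in the F test and 60 for the trend.

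The median change of the 66 genes moved by more than the spread between pools (SD 0.0354) in a few cases. It was 0.0083 at 3 ppb with the median of features, -0.0125 at 30 ppb with cyclic loess, and -0.013 at 30 ppb with array weights. The slope with dose in ppb has another unit than the slope per dose rank, so only its sign was compared and not its size. Its median was 0.0004, of the opposite sign to the median of -0.0063 per dose rank. With a pool left out the median change lay between -0.0909 and -0.0469 at 0.3 ppb, -0.0894 and -0.0266 at 3 ppb, -0.0632 and 0.0049 at 30 ppb, -0.073 and -0.0335 for the mean of the doses, and -0.0125 and 0.0036 for the slope. The cause was not tested. The changes of slc6a7 at 0.3 and 3 ppb and of slc25a43 at 0.3 ppb kept their sign under all alternatives run. The range of dose means was 0.44 for slc16a4 with the median of features, and 0.18 for slc29a4a and 0.19 for slc33a1 with array weights.

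Pools with the same replicate number in different doses had residual correlations of -0.372 to 0.679 (median 0.073), and 9 of 18 pairs were over 0.1. Pools with different numbers had -0.72 to 0.586 (median -0.024), with 10 of 36 pairs over 0.1. Some same-numbered pairs were thus well correlated, but not every one, and the numbers were not taken to pair the pools. With the replicate number as a block, 0 solute carrier genes were called in each test, and over all units 1 at 30 ppb, 45 in the trend and 4 in the F test. Without a background measure, how far dim genes lie above background is unknown.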
